A study of Mus musculus with 6 samples.

Results

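Krüppel-like factors (KLF) are transcription factors, and 10 genes of the family were followed in a mouse pro-B cell line in which the transcription factor PU.1 was induced. The genes are Klf2, Klf3, Klf4, Klf6, Klf7, Klf9, Klf10, Klf11, Klf12 and Klf13, picked by symbol out of 23793 rows of the authors' deposited table, where each has 1 row. The cells are i660BM, a C57BL/6 pro-B line grown with interleukin 7 that carries a doxycycline-inducible PU.1 in both groups. The 3 induced samples received 70 ng/ml doxycycline for 48 h, and the 3 non-induced samples received none. Whether the samples of a group came from separate cultures is not said in the labels, and all come from 1 line, so the deposited p-values may reflect technical spread only. No sample received doxycycline without PU.1, so the drug and the factor cannot be told apart.

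KLF proteins bind GC-rich DNA and CACCC elements through zinc fingers at the C terminus, which resemble those of the SP factors. The N-terminal parts differ and set the partners. KLF2, KLF4, KLF6 and KLF7 are mostly activators, KLF9, KLF10, KLF11 and KLF13 recruit the SIN3A co-repressor, and KLF3 and KLF12 recruit CtBP. In lymphocytes KLF2 keeps resting cells quiescent and controls where they home, and in monocytes Klf4 lies downstream of PU.1.

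Levels are in FPKM, fragments scaled by transcript length and library size, and the table gives each gene a single such value for each group. It holds no value per library, so no spread between libraries can be shown. The lowest values lay on steps that correspond to about 40700000 fragments per induced library and 39700000 per non-induced library. The gene that was induced, Spi1, which encodes PU.1, stood at 246.3 FPKM in induced cells and 36.0 FPKM in non-induced cells in the authors' deposited table, and its value does not separate the introduced copy from the endogenous one. A gene is said to rise or fall where the authors had tested it with Cuffdiff and the deposited q-value was under 0.05. Of 12 pro-B cell markers 11 were tested, of which 8 were higher and 0 lower, against 19.0% and 16.1% of all tested genes, and the sum of the list was 5756.4 FPKM in induced and 3594.6 FPKM in non-induced cells. Among them Il7r, the interleukin 7 receptor gene, stood at 142.4 FPKM in induced and 43.5 FPKM in non-induced cells, Igll1, a surrogate light chain gene, stood at 1082.8 FPKM in induced and 538.3 FPKM in non-induced cells, and Kit was listed at 0 in both groups (authors' deposited table).

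Klf2, Klf6, Klf10 and Klf11 rose by modest amounts and Klf9 fell slightly. Of the 10 members 7 were tested in the authors' deposited table, and 4 of these were higher (Klf11, Klf6, Klf2 and Klf10), 1 was lower (Klf9) and 2 were not called (Klf7 and Klf13). Over all 10657 tested genes 35.1% were called, 19.0% higher and 16.1% lower in induced cells. The largest rise, that of Klf11, was 1.73-fold, and the others stayed under 1.5-fold. The rank changed with the scale: with a pseudocount of 1 FPKM its log2 change was 0.25, below those of Klf6 (0.46), Klf2 (0.41) and Klf10 (0.26). The median log2 change of the 7 tested members was 0.28, against -0.01 over all tested genes. Klf3, Klf4 and Klf12 were not tested and are listed at 0 in both groups of the authors' deposited table.

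**Figure D1:**
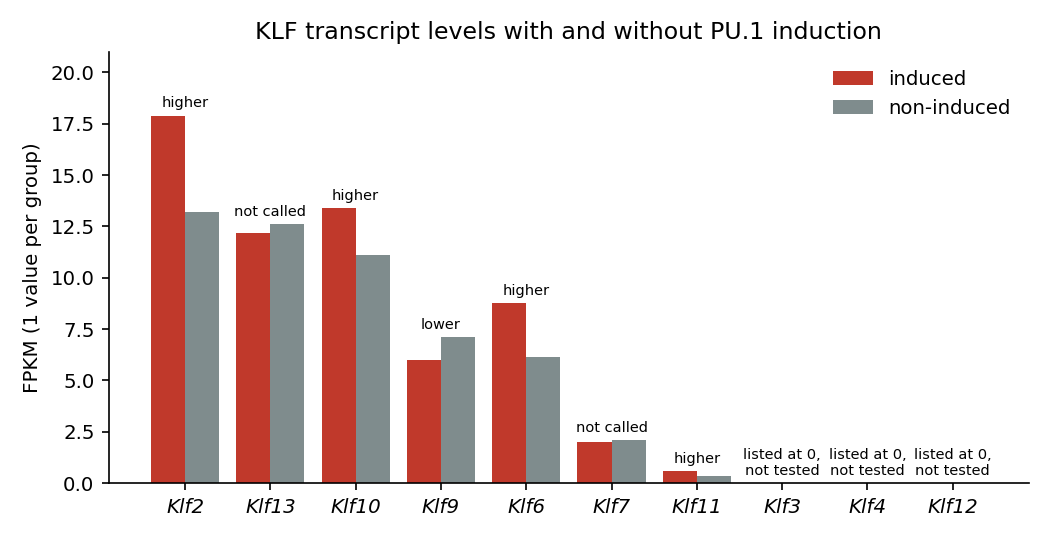
Bars give the 1 deposited FPKM value per group for the 10 KLF members, red for induced and grey for non-induced cells, with the authors' call above each pair, and no error bar because the table gives group values only. Klf2 stands highest in both groups, at 17.9 FPKM in induced and 13.2 FPKM in non-induced cells, and Klf3, Klf4 and Klf12 are listed at 0.

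The promoters of 3 members that rose and of the 1 that fell are shown here because their transcripts moved in opposite directions. The sequences are RefSeq's (GRCm38.p6, the same assembly as mm10), read 5′ to 3′ on the strand of the gene. They end at the annotated start site, or where a GENCODE M21 exon begins upstream of it. Capitals mark GGGCGG, the GC box bound by SP and KLF factors, CACCC, the KLF box, and GAGGAA, a core of PU.1 sites, each on either strand.
Klf2, chr8:72318812-72319032, plus strand: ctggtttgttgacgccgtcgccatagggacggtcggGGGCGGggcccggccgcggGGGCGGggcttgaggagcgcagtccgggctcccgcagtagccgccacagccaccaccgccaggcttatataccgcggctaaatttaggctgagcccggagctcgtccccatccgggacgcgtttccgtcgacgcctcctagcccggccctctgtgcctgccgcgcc
Klf6, chr13:5861239-5861481, plus strand: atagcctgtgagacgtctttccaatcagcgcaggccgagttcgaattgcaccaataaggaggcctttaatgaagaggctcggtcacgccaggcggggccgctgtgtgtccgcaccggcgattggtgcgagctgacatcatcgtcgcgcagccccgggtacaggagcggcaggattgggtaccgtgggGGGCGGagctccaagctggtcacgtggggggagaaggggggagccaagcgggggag
Klf11, chr12:24651121-24651273, plus strand: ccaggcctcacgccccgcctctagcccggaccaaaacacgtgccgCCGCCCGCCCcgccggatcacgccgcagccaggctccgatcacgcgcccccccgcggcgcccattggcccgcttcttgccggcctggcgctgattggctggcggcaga
Klf9, chr19:23140976-23141225, plus strand: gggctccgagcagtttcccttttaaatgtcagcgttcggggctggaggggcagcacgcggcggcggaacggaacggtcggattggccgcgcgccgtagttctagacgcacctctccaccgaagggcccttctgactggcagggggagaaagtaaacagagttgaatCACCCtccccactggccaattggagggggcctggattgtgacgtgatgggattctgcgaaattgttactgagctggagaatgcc
The 3 that rose carry GC boxes in these stretches, 2 in Klf2, 1 in Klf6 and 2 overlapping ones in Klf11. Klf9 has none and has 1 KLF box, whose first base lies 84 bases before the start site. GAGGAA is in none of the 4 stretches. GC boxes were not limited to members that rose. In the wider promoter windows of the next paragraph, Klf13 has 3 and Klf7 has 1, and neither gene was called. Klf3 has 6 and Klf4 has 4, and both are listed at 0, as is Klf12, which has none. The wider window of Klf2 also holds a KLF box, 19 bases before the start site and past the stretch shown. That of Klf11 holds 4 GC boxes in all, with those at 49 and 20 bases before the start site past the stretch shown. Whether these boxes bear on the changes was not tested.

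Of the 10 members 9 had a RefSeq promoter window of 300 bases (250 before the start site and 50 after it), and Klf10 had no entry. GGGCGG was found in 7 of these 9 windows, against 62.7% of 10191 windows of tested genes and 35.7% of all 32851 windows. CACCC was found in 6 of 9, against 62.6% of tested genes' windows and 57.5% of all windows. GAGGAA was found in 1 of 9, that of Klf12, against 26.7% and 28.3%. The same Klf12 match extends to GAGGAAG, which 13.7% of tested genes' windows and 13.6% of all windows hold. With 9 windows these shares are a description of letters and do not show binding or its absence.

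The median G+C content of the 9 windows was 69.3%, against 60.7% for tested genes and 52.7% for all windows. The range ran from 45.7% in Klf12 to 77.7% in Klf11. Its ratio of observed to expected CpG was also lowest in Klf12, at 0.426, against a median of 0.844 over the 9 members. The windows of Klf3 and Klf4 are GC-rich, at 76.7% and 74.3%, and both genes are listed at 0 like Klf12.

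**Figure D2:**
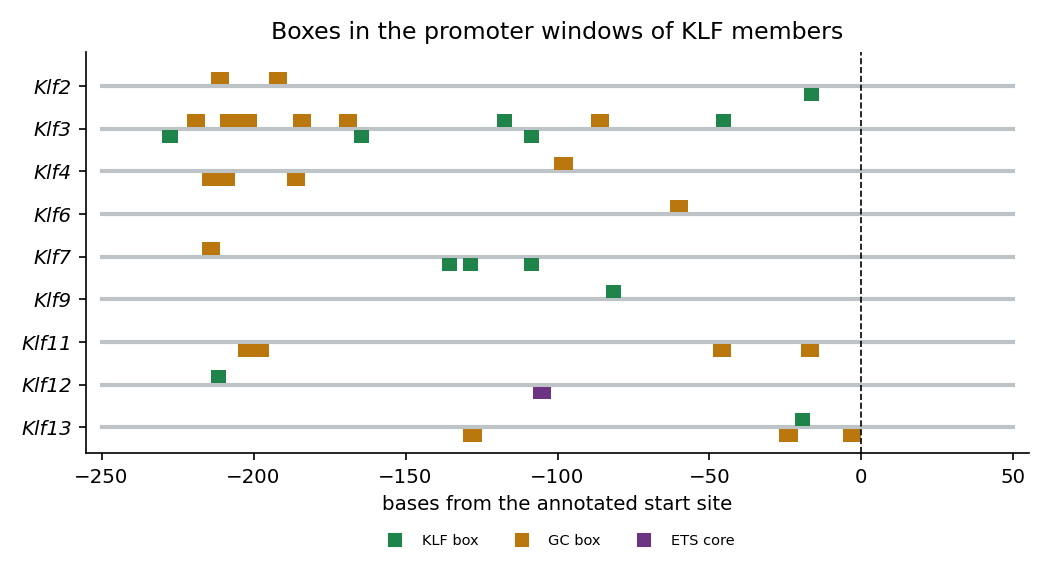
Each grey line is the promoter window of 1 KLF member, from 250 bases before to 50 bases after the RefSeq start site (dashed line), with coloured marks above it for matches on the strand of the gene and below it for the other strand. GC boxes are GGGCGG, KLF boxes are CACCC and the ETS core is GAGGAA, whose only match among the 9 windows is in Klf12.

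Among the activators Klf2 and Klf6 rose, and Klf7 was not called. Klf2 (chromosome 8, 72319033 to 72321656 of GENCODE M21 on mm10, plus strand) stood at 17.9 FPKM in induced cells, against 13.2 FPKM in non-induced cells, in the authors' deposited table. This is a rise of 35.4%, or 0.44 ± 0.12 on the log2 scale (95% interval 0.20 to 0.67, Cuffdiff q = 0.000287). The value after ± is, for each gene, the standard error implied by the table, the deposited log2 change divided by the deposited test statistic. Klf2 was the most abundant member in both groups, above 53.1% of tested genes in induced cells and 45.0% in non-induced cells.

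Klf6 (chromosome 13, 5861482 to 5870394, plus strand), first described as a factor that binds core promoter elements, stood at 8.78 FPKM in induced and 6.12 FPKM in non-induced cells in the authors' deposited table. Its log2 change was 0.52 ± 0.15 (95% interval 0.22 to 0.82, Cuffdiff q = 0.000287), a rise of 43.4%. Klf7 (chromosome 1, 64029447 to 64122282, minus strand), a broadly expressed member, had 2.02 FPKM in induced and 2.10 FPKM in non-induced cells (authors' deposited table). Its interval, -0.50 to 0.38 on the log2 scale, leaves room for a change of either sign (Cuffdiff q = 0.791). The log2 change of Klf6 exceeded that of Klf7 by 0.58, with a combined implied standard error of 0.27. The 95% interval, with the errors taken as independent, was 0.04 to 1.11 and makes no allowance for the choice of this pair. The fourth activator, Klf4 (chromosome 4, 55527143 to 55532466, minus strand), was listed at 0 in both groups of the authors' deposited table.

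Among the SIN3A-binding members Klf11 and Klf10 rose, Klf9 fell and Klf13 was not called. Klf10 and Klf11 were first found as genes induced early by transforming growth factor beta (TGF-beta). Klf11 (chromosome 12, 24651274 to 24662789, plus strand) stood at 0.600 FPKM in induced and 0.346 FPKM in non-induced cells (authors' deposited table), the lowest level among the tested members. The log2 change was 0.79 ± 0.25 (95% interval 0.30 to 1.29, Cuffdiff q = 0.000287). The level corresponds to roughly 299 fragments summed over the induced libraries and 168 over the non-induced ones, against 1888 to 9573 per group for the other tested members. Of the tested genes, 477 had a larger log2 change than Klf11.

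Klf10 (chromosome 15, 38291463 to 38300706, minus strand) stood at 13.4 FPKM in induced and 11.1 FPKM in non-induced cells in the authors' deposited table. It rose by 0.28 ± 0.15 in log2 terms (Cuffdiff q = 0.00534). Klf9 (chromosome 19, 23141226 to 23168134, plus strand), a glucocorticoid and thyroid hormone response gene, stood at 6.01 FPKM in induced and 7.11 FPKM in non-induced cells (authors' deposited table). The log2 change was -0.24 ± 0.16 (Cuffdiff q = 0.0269). For both genes the 95% interval from the implied standard error includes 0, at -0.02 to 0.58 for Klf10 and -0.55 to 0.07 for Klf9. With normal p-values taken from the Cuffdiff test statistics of all tested genes, Klf10 and Klf9 lost their calls, leaving 3 of 7 members called, all higher, against 15.2% of those genes called in either direction. The Benjamini-Hochberg adjusted p by that rule was 0.268 for Klf10 and 0.381 for Klf9, and it was 0.0136 for Klf11, 0.00669 for Klf6 and 0.00303 for Klf2.

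Klf13 (chromosome 7, 63886351 to 63938915, minus strand), known in T cells as an activator of the chemokine gene Ccl5, had 12.2 FPKM in induced and 12.6 FPKM in non-induced cells (authors' deposited table). The difference was not called (Cuffdiff q = 0.713), and its 95% interval of -0.33 to 0.23 on the log2 scale covers changes of the size of that of Klf9. Klf7, Klf9 and Klf13 each share a file locus with another row, Mir6899, Mir1192 and E030018B13Rik, and these partners are listed at 0 in both groups.

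The CtBP-binding members Klf3 (chromosome 5, 64803388 to 64832901, plus strand) and Klf12 (chromosome 14, 99870632 to 100284679, minus strand) were listed at 0 in both groups of the authors' deposited table. Such a value does not show that a transcript was absent. The table lists 8945 rows at 0 in both groups. Klf3, Klf4 and Klf12 carry the authors' mark of an untested row.

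**Figure D3:**
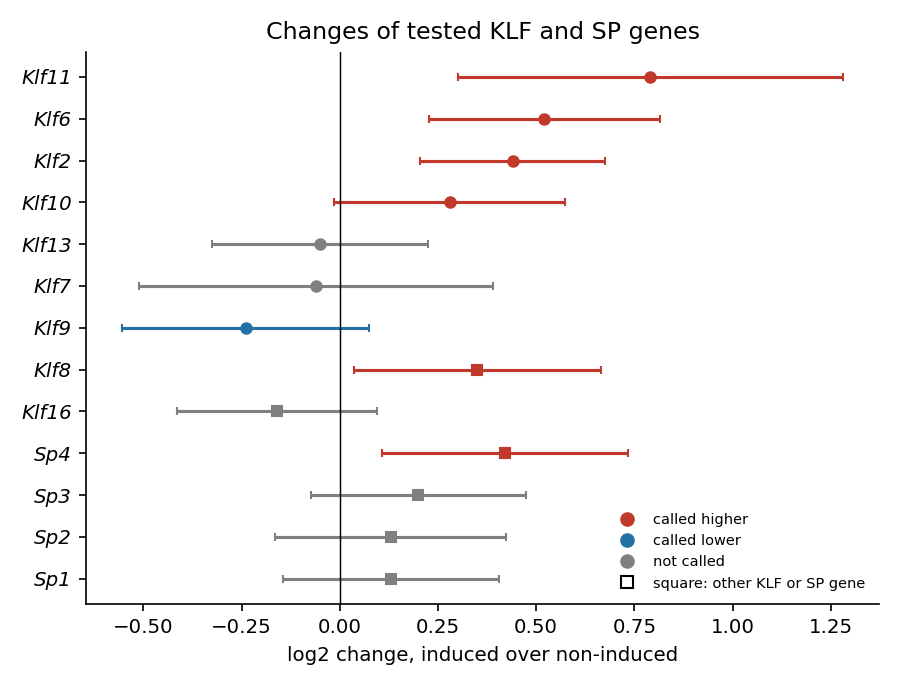
Points give the authors' log2 change, induced over non-induced, for tested KLF members (circles) and for other tested KLF and SP genes (squares), with bars for the 95% interval from the implied standard error. The bars of Klf11, Klf6, Klf2, Klf8 and Sp4 lie above 0, and those of Klf10 and Klf9, although called, reach across it.

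The order of the members by level shifted between the groups. In induced cells it ran Klf2, Klf10, Klf13, Klf6, Klf9, Klf7 and Klf11, and in non-induced cells Klf2, Klf13, Klf10, Klf9, Klf6, Klf7 and Klf11. FPKM is scaled by length, so levels of different genes can be set side by side, but without library values neighbours in either order cannot be separated beyond their spread. Klf6 stood at 1.46 times the level of Klf9 in induced cells and 0.861 times in non-induced cells. The log2 change of Klf6 exceeded that of Klf9 by 0.76, with a 95% interval of 0.33 to 1.19 from the combined implied standard errors, taken as independent. For Klf10 over Klf13 the ratio was 1.11 in induced and 0.882 in non-induced cells. The difference in log2 change, 0.33, had an interval of -0.09 to 0.74. These intervals make no allowance for the choice of pairs that changed order in the same values.

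Summed over the 7 tested members, KLF transcripts stood at 60.9 FPKM in induced and 52.6 FPKM in non-induced cells. Klf2, Klf10 and Klf13 together made up 71.4% of the sum in induced and 70.2% in non-induced cells. The share of Klf2 was 29.4% in induced and 25.2% in non-induced cells, and that of Klf9 was 9.87% in induced and 13.5% in non-induced cells. These sums come from group values and were not tested. The median level of the tested members was 8.78 FPKM in induced and 7.11 FPKM in non-induced cells, below the median of all tested genes, 16.1 FPKM in induced and 15.8 FPKM in non-induced cells.

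All 7 tested members lay below the median level of tested genes, a mean of 16.0 FPKM over the groups. Among the 5328 tested genes below it, 21.1% were called higher and 17.2% lower. The median absolute log2 change of all called genes was 0.39, and 671 called genes had a larger absolute log2 change than Klf11.

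The count of members depended on the call rule. At a deposited q under 0.01 the members had 4 higher and 0 lower, since Klf9 lost its call, against 14.8% and 11.1% of tested genes. At 1.5-fold or more Klf11 alone was higher and 0 were lower, against 6.34% and 3.85%, and at 2-fold or more no member was called, against 2.51% and 1.55%. Without rows that share a locus, which removes Klf7, Klf9 and Klf13, 4 of the 4 left were higher, against 20.6% higher and 18.0% lower. With a mean of at least 1 FPKM, which removes Klf11, 3 members were higher and 1 lower, against 18.6% and 16.2%. With at least 5 FPKM, which removes Klf7 too, the counts were again 3 and 1, against 17.7% and 15.1%.

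**Figure D4:**
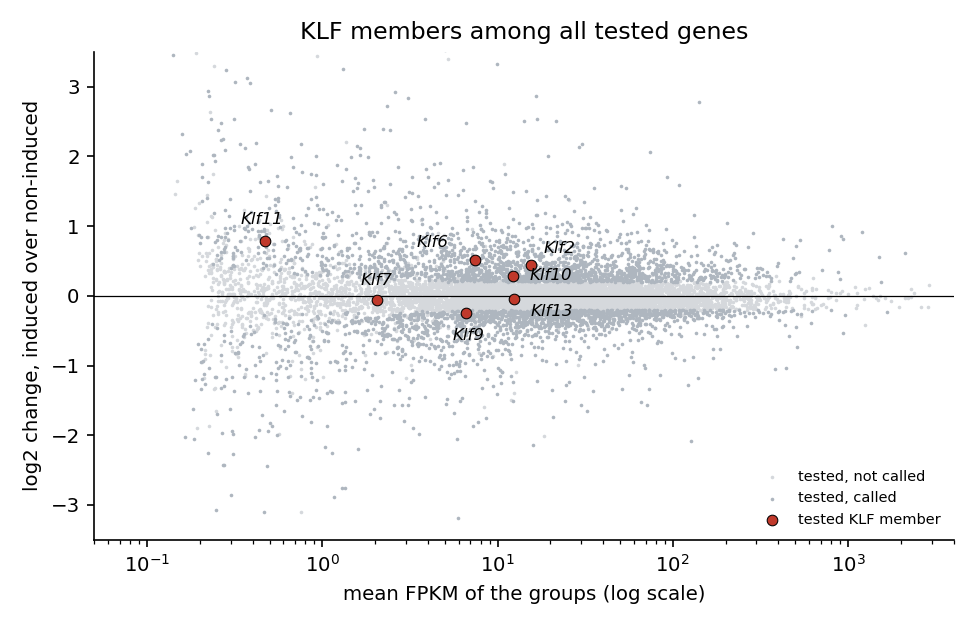
Each point is 1 of 10628 tested genes with a finite log2 change (y axis, induced over non-induced) against the mean FPKM of the groups (x axis, log scale), and 63 genes beyond 3.5 on the y axis are not drawn. The 7 tested KLF members (red) lie among the called and uncalled genes of similar level, from -0.24 for Klf9 to 0.79 for Klf11.

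The counts called in the gene lists that follow stand beside 19.0% higher and 16.1% lower over all tested genes. Of 7 other KLF genes with a row, the authors had tested 2, and 1 of these was called. Klf8, a CtBP-binding repressor, rose to 6.07 FPKM in induced cells, against 4.75 FPKM in non-induced cells, a log2 change of 0.35 ± 0.16 (authors' deposited table). Like Klf10 and Klf9, it lost its call when the p-value was taken from the statistic. Klf16, a SIN3A-binding member, had 17.9 FPKM in induced and 20.0 FPKM in non-induced cells (authors' deposited table) and was not called (Cuffdiff q = 0.130). Klf1, the erythroid factor, was untested at 0.151 FPKM in induced and 0.190 FPKM in non-induced cells in the authors' deposited table, and Klf5, Klf14, Klf15 and Klf17 were listed at 0 in both groups.

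Of 9 SP genes 4 were tested, and only Sp4 rose, to 5.51 FPKM in induced cells against 4.11 FPKM in non-induced cells in the authors' deposited table, a log2 change of 0.42 ± 0.16. The broadly expressed Sp1 and Sp3 stood at 31.8 and 55.5 FPKM in induced cells and at 29.0 and 48.3 FPKM in non-induced cells in the authors' deposited table. Neither was called, with Sp3 close to the threshold (Cuffdiff q = 0.0541). Klf3 is known to repress Klf8, Lgals3 and Fam132a in mice. Of these only Klf8 rose, Fam132a was not called and Lgals3 was untested.

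Genes known to act upstream of Klf2 were higher for 4 of the 8 tested and lower for 0, with a median log2 change of 0.20. By p-values taken from the statistic 2 of the 8 were called higher, and at 1.5-fold or more 0 were. They belong to the ERK5 kinase cascade, its MEF2 substrates and the FOXO factors. Foxo1, which activates Klf2 in T cells, stood at 48.6 FPKM in induced and 32.5 FPKM in non-induced cells in the authors' deposited table, which is 0.58 ± 0.14 in log2 terms. Mef2c (log2 0.42), Mapk7 (0.41), which encodes ERK5, and its upstream kinase Map3k3 (0.29) also rose in the authors' deposited table.

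Homing genes known to depend on KLF2 in lymphocytes moved in both directions, with 2 of 5 tested members higher and 2 lower. In the authors' deposited table Cd44, the hyaluronan receptor gene, rose to 18.2 FPKM in induced cells, against 11.7 FPKM in non-induced cells. Both tested chemokine receptor genes fell. Cxcr5 stood at 9.56 FPKM in induced and 32.0 FPKM in non-induced cells (authors' deposited table). Ccr7 stood at 50.9 FPKM in induced and 71.6 FPKM in non-induced cells (authors' deposited table). S1pr1, the sphingosine phosphate receptor and a KLF2 target in T cells, was untested, at 0.0720 FPKM in induced and 0.0663 FPKM in non-induced cells (authors' deposited table). Cxcr3 was listed at 0 in both groups.

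Of 13 tested cofactors that KLF proteins recruit, 2 were higher, 1 was lower and 10 were not called, with a median log2 change of -0.02, and 35.1% of all tested genes were called in either direction. The acetyltransferase genes Kat2b (log2 0.57) and Ep300 (0.37) rose in the authors' deposited table. Among 4 tested ubiquitin ligases that act on KLF proteins, Itch rose (log2 0.33) in the authors' deposited table and the others were not called.

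The TGF-beta list, in which Klf10 and Klf11 would stand as early response genes, had 7 tested members, of which 3 rose and 0 fell. These were Smad7, the inhibitory SMAD, at 13.0 FPKM in induced and 7.90 FPKM in non-induced cells, the ligand gene Tgfb1 (log2 0.48) and the receptor gene Tgfbr2 (0.43), in the authors' deposited table. The glucocorticoid list holds the receptor gene Nr3c1 and genes that the receptor induces, of which Klf9 is one outside the list, and 2 of its 6 tested members rose and 3 fell. Nr3c1 rose (log2 0.77) in the authors' deposited table. Among the induced genes Tsc22d3 (log2 0.44) rose, and the clock gene Per1 (-0.76), the phosphatase gene Dusp1 (-0.23) and Fkbp5 (-0.22) fell in the authors' deposited table.

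Among genes that mark lymphocyte quiescence, a state that KLF2 maintains in T cells, 5 of the 9 tested rose and 0 fell, with a median log2 change of 0.58. Btg2 (log2 1.99), Slfn2 (1.07) and the cyclin-dependent kinase inhibitor genes Cdkn1b (0.97) and Cdkn1a (0.74) rose in the authors' deposited table. Tob2 (log2 0.19), Tob1 (0.12), Btg1 (-0.06) and Rbl2 (-0.04) were not called in the authors' deposited table. Whether the induced cells were more quiescent was not tested. By p-values taken from the statistic the cofactors had 1 higher, the ubiquitin ligases had 0 higher and the glucocorticoid list had 1 lower. These lists are short, were chosen with results of these data known and were not tested as sets.

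**Figure D5:**
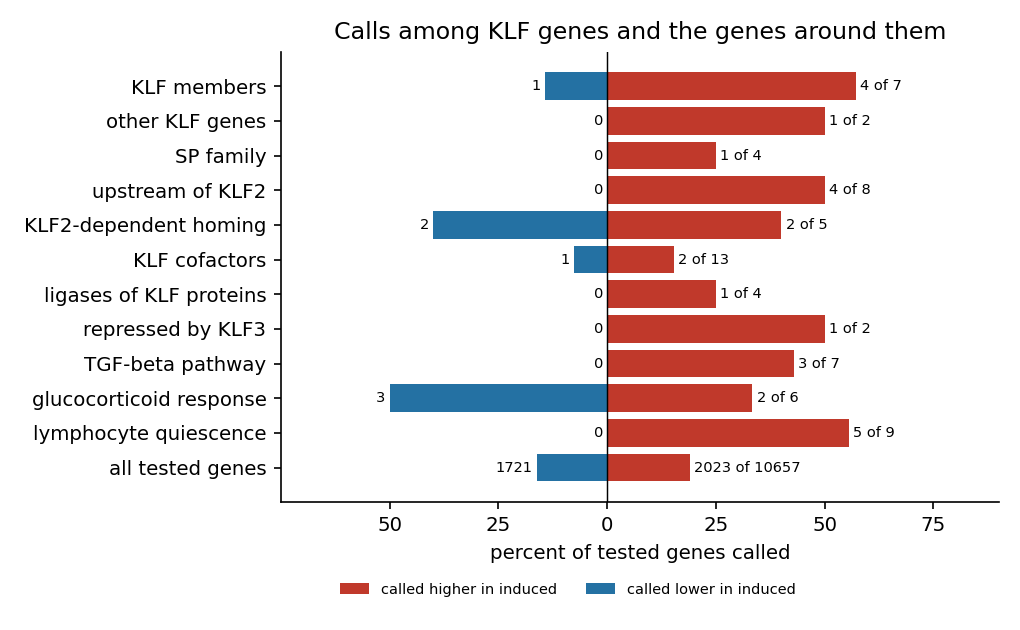
Bars give the percent of tested genes in each list that the authors' q-value calls higher (red, right) or lower (blue, left) in induced cells, with counts beside them and all tested genes in the lowest row. The KLF members have 4 of 7 higher and 1 lower, and the homing list has 2 of 5 higher and 2 lower.

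Markers of other cell types were examined beside these values. Macrophage and granulocyte markers, 10 of which have a row, summed to 22.4 FPKM in induced and 2.23 FPKM in non-induced cells, mostly from Lyz2 and Cd68, while Elane, S100a8, S100a9 and Csf3r were listed at 0 in both groups. T cell markers, 7 of which have a row (Trac has none), summed to 0.236 FPKM in induced and 0.317 FPKM in non-induced cells. NK cell markers summed to 0.0279 FPKM in induced and 0.0439 FPKM in non-induced cells. Erythroid and megakaryocyte markers, 5 of which have a row, summed to 0.452 FPKM in induced and 0.437 FPKM in non-induced cells. The globin genes Hba-a1 and Hbb-b1 have no row and are not in this sum. Among 7 stromal and endothelial markers Pecam1, which B cell precursors also express, made up nearly all of the sum, at 19.3 FPKM in induced and 9.80 FPKM in non-induced cells in the authors' deposited table, and the collagen genes were listed at 0. In bulk RNA more transcript per cell and more cells with the transcript cannot be told apart, and the part of the macrophage and pro-B cell markers in the KLF values was not tested.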

How the data were processed

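Stranded mRNA libraries of 6 samples were sequenced, per the labels' protocols. Per the submitters' processing notes, the tools were Cuffdiff 2.1.1, Cufflinks, TopHat2 2.0.9 and Trim Galore 0.2.8.1, with build mm10. Not given in the sources used here are the annotation and the use of strand in counting. For every gene the deposited table has an FPKM value of each group, computed by the authors, with their log2 fold change, test statistic (a score), p-value and q-value. Of 23793 rows the authors had tested 10657. The floor of the p-values, 5e-05, shared by 1855 rows, gives q = 0.000287.

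Calls are the authors' (tested, q under 0.05), and no test per gene was made from group values. The implied standard error assumes that the statistic is the log change over its standard error, which the table does not state. Depth was estimated from FPKM times transcript length, for genes with 1 GENCODE M21 transcript of at least 1 kb. Of low values, 65.9% in induced and 70.7% in non-induced cells lay within 0.15 of a whole number of fragments, against 30% for evenly spread values, so depths are approximate. Fragment numbers per gene use the longest coding transcript.

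The members and lists were chosen with earlier results of these data known. All 10 members are named, and up to 4 called genes per other list, those with the largest absolute log2 change. Fkbp5 and uncalled, untested or marker genes outside that rule were named after their values were seen. Alternatives were another p-value source, filters on low values, fold and q thresholds, shared loci, pseudocounts and scalings. A planned protein comparison was not made. Values of some genes in the lists are not reported here. Calling by normal p-values and the depth step were tested on simulated data, with Python 3.11.15, pandas 2.3.3 and scipy 1.17.1. The authors' own calls were not tested in this way.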

Additional observations from a re-analysis of the deposited data

How the results depend on the processing

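No paired analysis was possible because the table holds 1 value per group, and for the same reason leaving out single replicates was not run. With normal p-values from the Cuffdiff statistic 956 genes were higher and 656 lower over the whole table, and among the KLF members Klf10 and Klf9 lost their calls, leaving 3 higher and 0 lower. Klf9 was also lost at q under 0.01 (0 members lower). Without rows that share a locus 4 KLF members remained in the test, all called higher, and 0 were lower because Klf9 shares its locus. At 1.5-fold or more 1 KLF member was higher, Klf11, and 0 were lower, against 676 and 410 genes over the table. At 2-fold or more 0 KLF members were higher and 0 lower, against 268 and 165 genes. Minimum means of 1 and 5 FPKM changed no member's call, but Klf11, and at 5 FPKM also Klf7, fell below them. The log2 change of Klf11 was 0.25 with a pseudocount of 1, against 0.79 as deposited. The other 41 of 42 log2 values of members under other pseudocounts and scalings moved by less than their implied standard error. In the other lists 32 of 140 counts moved by more than 1.5 times, all of which are small counts. Klf11 had the fewest estimated fragments of the tested members.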
